A study of Mus musculus with 8 samples.

Results

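Aminoacyl-tRNA synthetases are the enzymes that attach each amino acid to its tRNA, and 37 of the 55401 genes in the kidney table encode them. The members were the genes whose symbol follows the naming of the family, a letter for the amino acid followed by ars, with Eprs, Farsa, Farsb and the suffixes 1 and 2. They comprised 20 enzymes of the cytosol and 17 of the mitochondrion, and all 37 were abundant enough to be tested. The family was described because of Pars2, whose lower level in rFGF4-treated mice was already known from these data, so its values are given as a description without a test. The study treated diabetic mice with rFGF4 or with vehicle and sequenced poly(A) RNA of kidney. rFGF4 is a recombinant human fibroblast growth factor 4 shortened at its N terminus, which the study describes as non-mitogenic. The 4 treated mice were numbered 1, 2, 3 and 5 and the 4 vehicle mice 2, 3, 4 and 5, with 1 library per mouse. The sample labels give the vehicle group as a db/db model, which lacks a working leptin receptor. The names of the vehicle libraries also begin with db. The text of the study instead names streptozotocin-treated mice for the sequencing, and which model was sequenced is not settled here. The labels give kidney without a region, and because this tissue holds many cell types, fewer cells of a type and less RNA per cell cannot be told apart.

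Most amino acids are handled by a pair of nuclear genes, with the cytosolic enzyme serving translation of nuclear-encoded mRNAs and the mitochondrial enzyme, named with the suffix 2, serving translation of the few respiratory chain subunits encoded by mitochondrial DNA. Gars and Kars each supply both compartments, Eprs joins glutamyl- and prolyl-tRNA synthetase in a single cytosolic protein, and Farsa and Farsb are the subunits of cytosolic phenylalanyl-tRNA synthetase. Mitochondria have no glutaminyl enzyme of their own: Ears2 charges the glutamine tRNA with glutamate, which the amidotransferase of Qrsl1, Gatb and Gatc then converts. Pars2 is the mitochondrial prolyl-tRNA synthetase. Kidney tubules are rich in mitochondria, and transcription of many cytosolic synthetases is known to respond to ATF4, the factor induced by amino acid shortage.

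The libraries were alike in depth but not in composition. Depth relative to vehicle mouse 2, read from the FPKM ratio most often shared by genes of low level, lay between 0.905 and 1.12. FPKM (fragments per kilobase of exon, scaled by the mapped reads) summed to between 389407 and 552604 per library. Genes encoded by mitochondrial DNA took 19.0% of this sum in rFGF4 mouse 1, 24.4% in vehicle mouse 5 and 24.7% in rFGF4 mouse 2, against 29.8% to 38.4% in the other 5 libraries. The same 3 libraries had the highest sums over 5 macrophage markers, 427, 459 and 183 FPKM against 25.5 to 101 FPKM in the others, and vehicle mouse 5 had 22907 FPKM of 5 B and plasma cell markers against 24.2 to 2716 FPKM. The 10 nephron markers, all tested, summed to 1252 FPKM in rFGF4 mouse 1 and 1630 FPKM in vehicle mouse 5 and to 2076 to 2477 FPKM elsewhere, so kidney identity was present in all 8. Of the B and plasma cell markers, the B cell gene Ms4a1 did not pass the filter. Red blood cell markers ranged from 120 to 4325 FPKM and hepatocyte markers from 175 to 527 FPKM, and of 6 pancreatic acinar markers only Cela1, which kidney also expresses, was tested, while the other 5 stayed near the floor.

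Among the cytosolic enzymes, the seryl, glycyl and lysyl synthetases had the highest levels per length. Sars was at 37.6, 29.2, 29.2 and 24.6 FPKM in rFGF4 mice 1, 2, 3 and 5 and at 24.9, 27.2, 25.0 and 25.6 FPKM in vehicle mice 2, 3, 4 and 5. Gars was at 30.8, 23.7, 18.8 and 18.8 FPKM against 19.9, 19.2, 17.8 and 23.1 FPKM. Kars was at 25.2, 20.99, 18.5 and 16.9 FPKM against 18.2, 20.4, 17.1 and 20.6 FPKM. In all 3 genes rFGF4 mouse 1 was the highest of the 8 mice and the groups overlapped. The threonyl, glutamyl-prolyl and cysteinyl enzymes were lowest. Tars was at 7.65, 6.34, 5.21 and 4.53 FPKM in rFGF4-treated mice and at 4.19, 3.99, 4.26 and 5.31 FPKM in vehicle mice. Cars was at 4.99, 3.86, 3.40 and 2.90 FPKM against 2.71, 3.24, 2.74 and 3.92 FPKM. Again rFGF4 mouse 1 was highest in both, and vehicle mouse 5 was the highest of its group. Between these ends, in falling order of mean level over the 8 mice, lay Nars, Hars, Rars, Farsb, Dars, Mars1, Aars, Qars, Vars, Iars, Yars, Wars, Lars and Farsa, from 19.0 FPKM for Nars to 5.64 FPKM for Farsa. Of the 19 pairs of neighbours in this order, 3 kept their order in all 8 mice. These were Sars above Gars, Aars above Qars and Tars above Eprs. The other pairs changed order in at least 1 mouse, and differences between neighbours were not tested.

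The mitochondrial enzymes had lower levels. Iars2 was at 12.3, 12.2, 13.1 and 11.3 FPKM in rFGF4 mice 1, 2, 3 and 5 and at 11.7, 8.58, 11.7 and 10.4 FPKM in vehicle mice 2, 3, 4 and 5. Rars2 was at 8.43, 10.4, 11.95 and 11.9 FPKM against 10.9, 7.35, 10.8 and 9.31 FPKM. Fars2 was at 5.68, 7.67, 7.30 and 6.93 FPKM against 7.08, 7.22, 7.66 and 5.89 FPKM. For Rars2 and Fars2, rFGF4 mouse 1 was the lowest of its group, the opposite of its place among the cytosolic enzymes. Below these came Hars2, Vars2, Tars2, Aars2, Yars2, Sars2, Cars2, Wars2, Nars2 and Lars2, with mean levels from 6.64 FPKM for Hars2 to 1.55 FPKM for Lars2. Of the 15 pairs of neighbours among the 16 enzymes named, 4 kept their order in all 8 mice: Rars2 above Fars2, Hars2 above Vars2, Aars2 above Yars2 and Cars2 above Wars2. The lowest mean level over the 8 mice belonged to Mars2, the methionyl enzyme, at 0.906, 0.711, 0.804 and 0.621 FPKM in rFGF4-treated mice and 0.649, 0.767, 0.801 and 0.638 FPKM in vehicle mice, and these ranges overlapped.

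**Figure D1:**
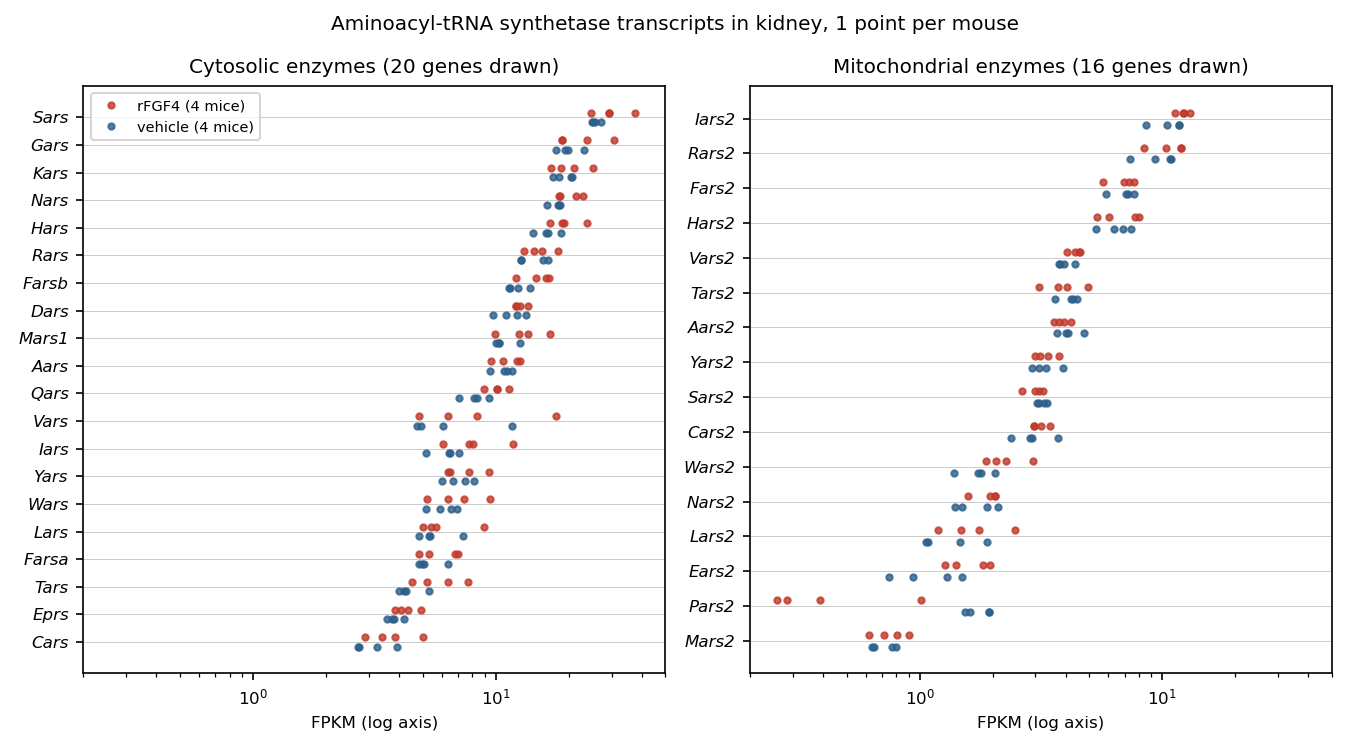
FPKM on a log axis of the 20 cytosolic enzymes (left) and 16 of the 17 mitochondrial enzymes (right), in order of mean level, with 1 point for each of the 4 rFGF4-treated mice (red) and 4 vehicle mice (blue). The red and blue points of Pars2 do not overlap, whereas those of the other 35 genes drawn do.

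Promoters were read for 27 of the 37 members (13 cytosolic and 14 mitochondrial) from RefSeq on GRCm38.p6, as 250 bases before and 50 after the annotated transcript start, and Aars, Gars, Iars, Tars and Yars are shown because their windows hold the core of the amino acid response element. The motif was searched as TGATGNAA on both strands. In capitals are its letters as they read on the gene's strand, and 40 bases before and 10 after are kept around it.
Aars: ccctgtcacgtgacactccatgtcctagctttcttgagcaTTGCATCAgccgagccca
Gars: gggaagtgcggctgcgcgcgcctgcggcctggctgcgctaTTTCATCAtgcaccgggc
Iars: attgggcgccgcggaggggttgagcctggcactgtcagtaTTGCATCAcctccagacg
Tars: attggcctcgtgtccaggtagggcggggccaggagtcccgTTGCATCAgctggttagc
Yars: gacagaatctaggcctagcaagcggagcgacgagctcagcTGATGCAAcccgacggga
The stretches lie at chr8:111033690-111033747 (plus strand) for Aars, chr6:55037931-55037988 (plus strand) for Gars, chr13:49682097-49682154 (plus strand) for Iars, chr15:11399656-11399713 (minus strand) for Tars and chr4:129189866-129189923 (plus strand) for Yars. Counted from 0 at the first transcribed base, the match began at -112 in Aars, -30 in Gars, -15 in Tars, 7 in Iars and 3 in Yars, and the Aars window held another at 9. In all, 5 of 13 cytosolic windows held the motif, 0 of 15 mitochondrial windows (Aars2 has a pair of overlapping windows) and 3.97% of 32851 promoters of the same length. The E-box CACGTG was in 4 cytosolic windows and 1 mitochondrial window (7.15% of all promoters) and the ETS core CCGGAAG in 5 and 4 (8.86%), each on both strands. A match describes letters only and was not tied to binding. On the log2(FPKM + 1) scale the 5 genes with the amino acid response core differed between rFGF4 and vehicle by 0.06 (Aars), 0.07 (Yars), 0.17 (Gars), 0.34 (Tars) and 0.35 (Iars), which spans the full range of the cytosolic enzymes.

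Pars2 was lower in every rFGF4-treated mouse than in every vehicle mouse. Its level was 0.387, 0.285, 0.259 and 1.01 FPKM in rFGF4 mice 1, 2, 3 and 5 and 1.94, 1.61, 1.93 and 1.54 FPKM in vehicle mice 2, 3, 4 and 5. The 4 vehicle mice lay close together, and rFGF4 mouse 5 stood between them and the other 3 treated mice. The mean was 0.486 ± 0.356 FPKM (SD, n = 4) with rFGF4 and 1.75 ± 0.208 FPKM (SD, n = 4) with vehicle, a ratio of 3.61 between the means. The log2 fold change was -0.91 with an SE of 0.17 on the log2(FPKM + 1) scale, which understates the change of a gene at this level, and -1.82 with 0.1 added in place of 1. Leaving out any single mouse gave -1.07 to -0.84. Rescaling to a common median ratio gave -0.97 and to the same summed FPKM -0.82. Pars2 ranked 13 of 17 mitochondrial enzymes in each vehicle mouse, 17 in rFGF4 mice 1, 2 and 3, and 16 in rFGF4 mouse 5. It made up 0.561%, 0.428%, 0.357% and 1.44% of the summed FPKM of the 17 mitochondrial enzymes in treated mice and 2.79%, 2.55%, 2.73% and 2.45% in vehicle mice. This was the only member of the 37 whose groups did not overlap. Among all tested genes 3.33% had groups that did not overlap, 0.667% lower and 2.66% higher with rFGF4, a background from which nothing is read here because Pars2 was chosen on this contrast.

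**Figure D2:**
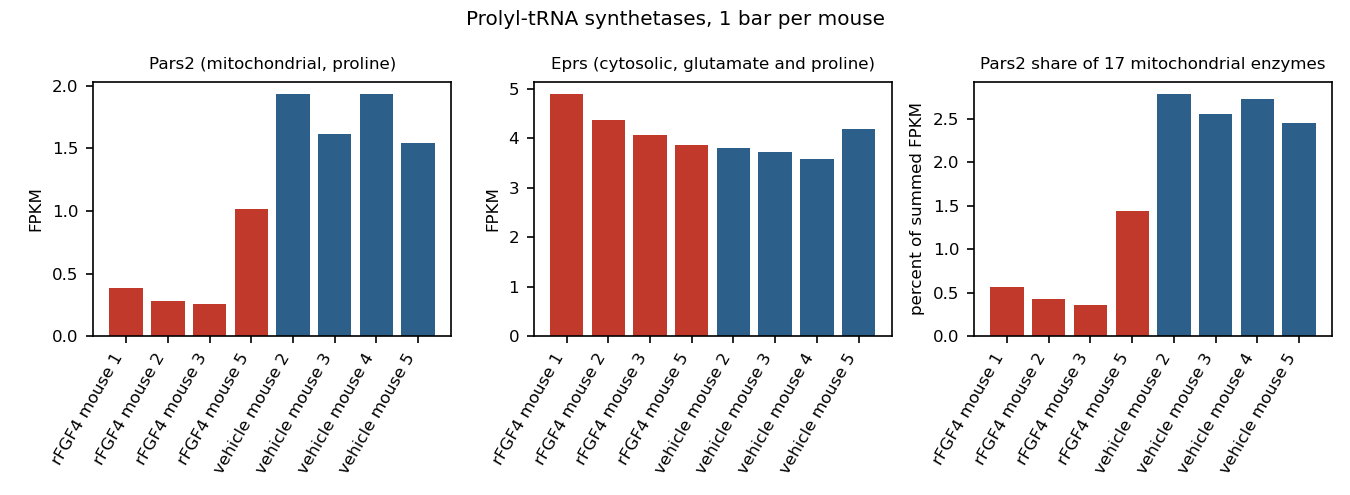
Pars2 level in FPKM (left), Eprs level in FPKM (middle) and the Pars2 share of the summed FPKM of the 17 mitochondrial enzymes in percent (right), with 1 bar per mouse, rFGF4 in red and vehicle in blue. Pars2 is 0.259 to 1.01 FPKM in treated mice and 1.54 to 1.94 FPKM in vehicle mice, while Eprs spans 3.86 to 4.90 and 3.57 to 4.19 FPKM.

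The libraries with the highest macrophage sums were rFGF4 mouse 1, rFGF4 mouse 2 and vehicle mouse 5. Their Pars2 levels were 0.387, 0.285 and 1.54 FPKM, and the last was the lowest of the vehicle group. Without rFGF4 mouse 1 and vehicle mouse 5 the log2 fold change of Pars2 was -0.93. The part of library composition in the Pars2 difference was not tested beyond these values. Eprs, which charges proline tRNA in the cytosol, was at 4.90, 4.36, 4.07 and 3.86 FPKM in treated mice and 3.79, 3.73, 3.57 and 4.19 FPKM in vehicle mice, so its groups overlapped. Its log2 fold change was 0.13 (95% interval -0.13 to 0.40, exact permutation p = 0.114, limma adjusted p = 0.920). Pars2 therefore came to 7.90%, 6.54%, 6.36% and 26.3% of Eprs in treated mice and 51.0%, 43.2%, 54.0% and 36.8% in vehicle mice.

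Pars2 lies on mouse chromosome 4 at chr4:106651069-106655282 on the plus strand of GRCm38 in GENCODE M21, with no exon of another gene overlapping it. It has 4 annotated transcripts of 3046, 2191, 644 and 502 bases, 3 of them coding, and each has 2 exons. The table gives values per gene only, so a shift between transcripts of different length and a change in level cannot be told apart. Of the protein-coding neighbours, Lexm and Ttc22 lie before Pars2, and Ttc4, Mroh7 and Fam151a after it. Ttc4, whose gene ends 6974 bases from the end of Pars2 on the other strand, was at 10.2, 8.51, 7.61 and 9.04 FPKM in treated mice and 7.56, 9.72, 8.19 and 9.83 FPKM in vehicle mice, with a log2 fold change of 0.00. Values of the others were -0.19 for Ttc22, -0.13 for Mroh7 and -0.41 for Fam151a, and Lexm was below the filter. In these 4 neighbours tested the groups overlapped, and two-sided exact permutation tests gave p between 0.514 and 0.971, with adjusted limma p of 0.935 or more.

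None of the other 36 members had an unadjusted limma p under 0.05, a level reached by 4.62% of the 15150 tested genes, and none of those 15150 passed an adjusted p of 0.05 (1 gene did without the filter, and 1 when vehicle mouse 2, 4 or 5 was left out). With the study's additional fold limit of 1.5, 1.53% of tested genes were called and again none of the 36. Their adjusted p ranged from 0.918 to 0.998. This holds for the full set of mice: without rFGF4 mouse 5 Tars, Mars1, Qars, Iars and Farsb reached an unadjusted p under 0.05, all higher with rFGF4, beside 9.44% of all tested genes. Without vehicle mouse 5 Ears2, Tars and Qars did, beside 6.51% of all tested genes.

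All 20 cytosolic enzymes had a positive log2 fold change, beside 67.1% of tested genes, with a median of 0.17 and a median over all tested genes of 0.09. Once libraries were brought to a common median ratio, 15 of 20 were positive (median 0.05), beside 47.3% of tested genes (median -0.01), and Aars, Rars, Yars, Lars and Kars turned negative. Without rFGF4 mouse 1, 15 of 20 were positive (median 0.08), beside 52.2% of tested genes (median 0.01), and Vars, Rars, Yars, Lars and Kars turned negative. Without both rFGF4 mouse 1 and vehicle mouse 5, 19 of 20 were positive (median 0.12), beside 64.7% of tested genes (median 0.07). Sum rescaling, which moved the median of all tested genes to 0.26 and the share of positive genes to 86.1%, left 20 of 20 positive. The values ran from 0.06 for Aars to 0.35 for Iars, the isoleucyl enzyme. Iars, Qars and Vars, chosen after their values were seen, show how the mice lay. Iars was at 11.8, 8.04, 7.79 and 6.08 FPKM in treated mice and at 6.42, 5.16, 6.48 and 7.06 FPKM in vehicle mice (exact permutation p = 0.114). Qars, the glutaminyl enzyme, was at 11.4, 10.2, 10.1 and 8.93 FPKM against 8.17, 7.06, 8.34 and 9.39 FPKM, with a log2 fold change of 0.27 (95% interval -0.01 to 0.55, exact permutation p = 0.0571), the smallest unadjusted limma p of the 36. Vars, the valyl enzyme, was at 17.6, 8.37, 6.33 and 4.85 FPKM against 4.72, 6.08, 4.90 and 11.6 FPKM, with a log2 fold change of 0.33, an interval from -0.57 to 1.23 and a value of -0.01 without rFGF4 mouse 1. Vars was highest in rFGF4 mouse 1 and vehicle mouse 5, and its coefficient of variation over the 8 mice, 56.0%, was exceeded within the family by the 65.1% of Pars2. For Sars, Gars, Kars, Tars and Cars the log2 fold changes were 0.21 (p = 0.143), 0.17 (p = 0.457), 0.08 (p = 0.514), 0.34 (p = 0.0857) and 0.20 (p = 0.257), with p from exact permutation tests.

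The remaining cytosolic members were Farsb (0.26), Hars and Mars1 (both 0.25), Nars (0.18), Wars (0.16), Farsa (0.14), Dars (0.12), Lars (0.10), Rars (0.08) and Yars (0.07) on the same log2 scale. Of the cytosolic enzymes, Eprs, Iars, Lars, Qars, Mars1, Kars, Rars and Dars belong to the multisynthetase complex, which is held together by the scaffolds Aimp1, Aimp2 and Eef1e1. The 8 complex enzymes had a median log2 fold change of 0.13 and the 12 outside this complex a median of 0.19. Their ranges were 0.08 to 0.35 and 0.06 to 0.34. The scaffold values were 0.03 for Aimp1, 0.20 for Aimp2 and 0.25 for Eef1e1, and none had an unadjusted p under 0.05. Mars1 shares exon bases with the antisense gene Ddit3, and 14 of the 37 members overlap an exon of another gene. Strand use is not given in the sources used here, so reads over such bases cannot be assigned.

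Of the 16 mitochondrial enzymes other than Pars2, 11 had a positive log2 fold change (68.8%, beside 67.1% of all tested genes), with a median of 0.06. With a common median ratio 7 of 16 were positive, beside 47.3% of tested genes, and after sum rescaling 16 of 16, beside 86.1%. Ears2, the glutamyl enzyme on which mitochondrial glutamine tRNA also depends, was at 1.27, 1.96, 1.82 and 1.41 FPKM in treated mice and 0.939, 0.745, 1.30 and 1.495 FPKM in vehicle mice, which overlapped. Its log2 fold change was 0.31 (95% interval -0.05 to 0.67, exact permutation p = 0.143, limma adjusted p = 0.918). Of the enzymes given by mouse above, Iars2 differed by 0.19 (exact permutation p = 0.0857), Rars2 by 0.14 (p = 0.429), Mars2 by 0.04 (p = 0.543) and Fars2 by -0.01 (95% interval -0.31 to 0.28). The others lay between 0.26 for Wars2 and -0.07 for Aars2, Sars2 and Tars2, with Lars2 at 0.19, Vars2 at 0.12, Nars2 at 0.10, Cars2 at 0.07, Hars2 at 0.04 and Yars2 at 0.00. Their 95% intervals reached between 0.23 (Mars2) and 0.42 (Lars2) on either side of the estimate. On this scale, that sets the size of difference that 4 mice a group could separate from 0. The added 1 narrows the values of genes at low levels. With 0.1 added instead, the SE of Mars2 was 0.22 rather than 0.10, and the log2 fold change of Ears2 was 0.51 rather than 0.31.

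**Figure D3:**
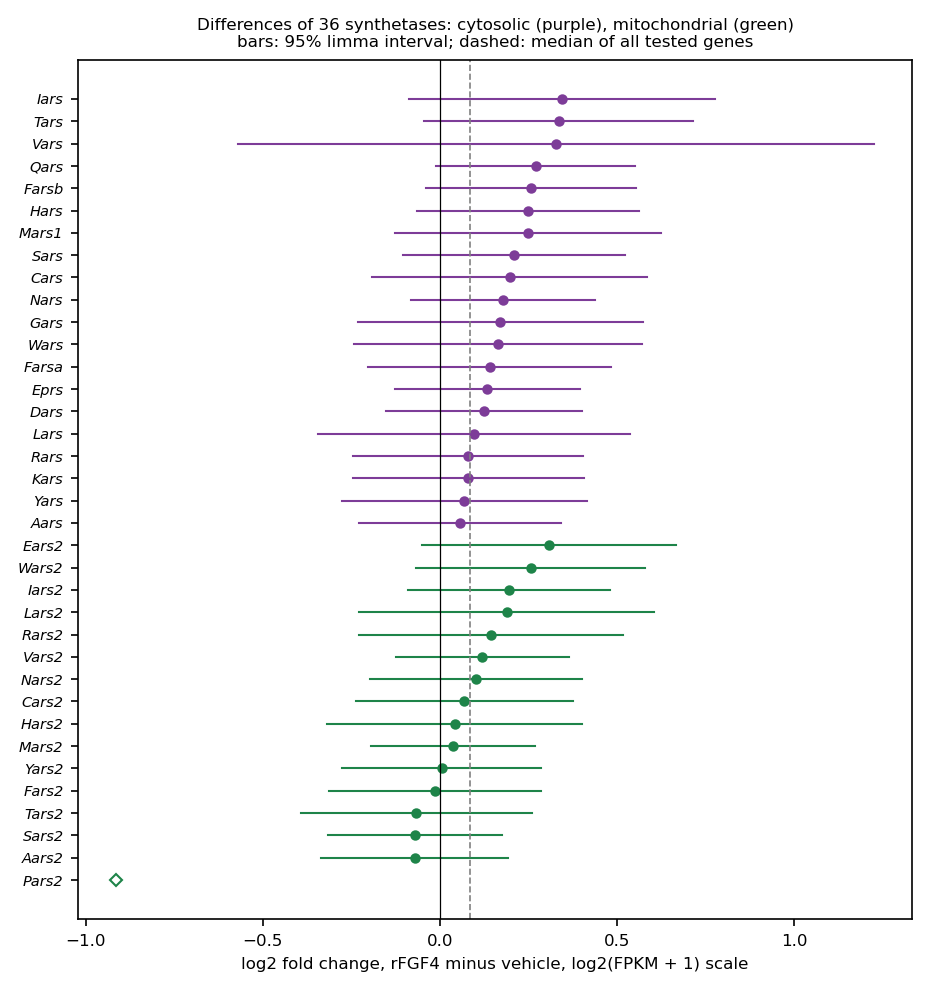
log2 fold change (rFGF4 minus vehicle, log2(FPKM + 1) scale) of 36 of the 37 members, cytosolic in purple and mitochondrial in green, with 95% limma intervals and a dashed line at 0.09, the median of all tested genes. All 35 intervals drawn include 0, and Pars2 is drawn as an open diamond at -0.91 without an interval because it was chosen on this contrast.

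The cytosolic enzymes differed together from mouse to mouse. Their summed FPKM was 309, 253, 230 and 206 in rFGF4 mice 1, 2, 3 and 5 and 209, 211, 203 and 239 in vehicle mice 2, 3, 4 and 5, or 249 ± 44.3 (SD, n = 4) against 215 ± 15.8 (SD, n = 4). The 3 highest sums belonged to rFGF4 mouse 1, rFGF4 mouse 2 and vehicle mouse 5, the same 3 libraries that had the lowest share of mitochondrially encoded genes and the highest macrophage sums, whose part in the result was not tested. rFGF4 mouse 1 was the highest of the 8 mice for 19 of the 20 cytosolic enzymes and for 4 of the 17 mitochondrial enzymes, beside 48.1% of all tested genes. With a common median ratio the cytosolic sums ran from 217 to 243 over the 8 mice. The mitochondrial sum was 69.0, 66.7, 72.5 and 70.3 FPKM in treated mice and 69.5, 63.2, 70.7 and 62.9 FPKM in vehicle mice, or 69.6 ± 2.43 (SD, n = 4) against 66.6 ± 4.11 (SD, n = 4). With a common median ratio the mitochondrial sums ran more widely, from 53.6 in rFGF4 mouse 1 and 57.2 in vehicle mouse 5 to 79.0 in vehicle mouse 4. After sum rescaling rFGF4 mouse 1 instead had the highest mitochondrial sum, 87.1, and vehicle mouse 3 the lowest, 57.4. The cytosolic sums then ran from 184 in vehicle mouse 4 to 390 in rFGF4 mouse 1. The cytosolic sum was thus 4.48, 3.79, 3.17 and 2.92 times the mitochondrial sum in treated mice and 3.01, 3.34, 2.86 and 3.79 times in vehicle mice, with overlapping groups.

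**Figure D4:**
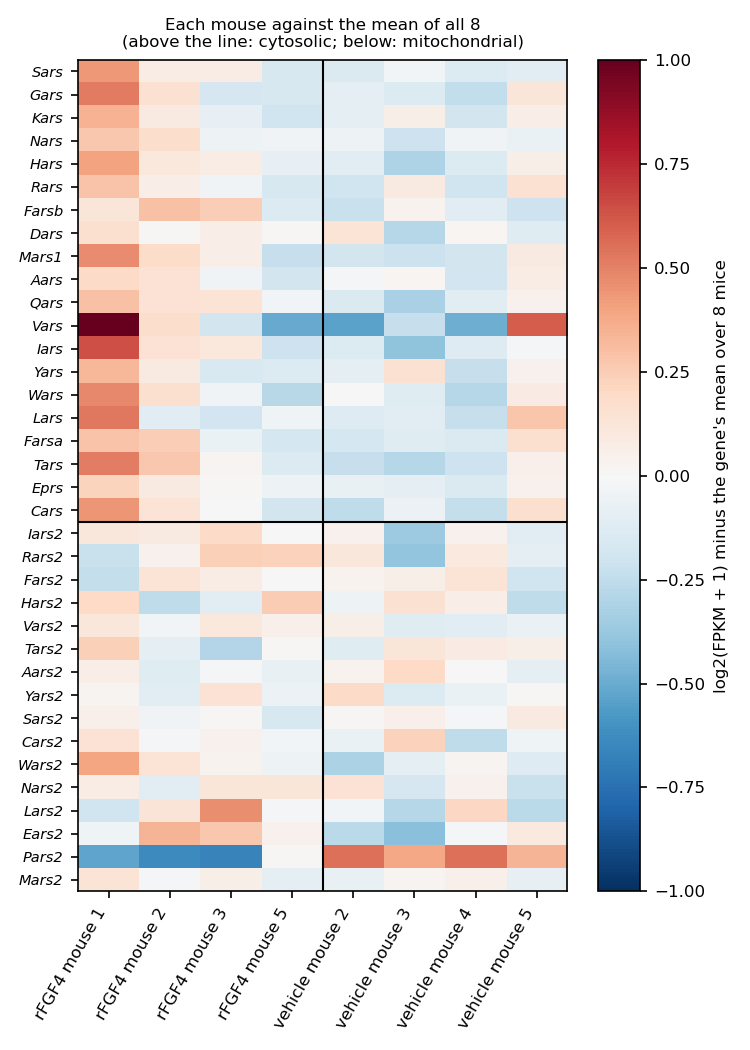
Difference of each mouse from the gene's mean over all 8 mice, on the log2(FPKM + 1) scale, for 20 cytosolic enzymes (above the line) and 16 mitochondrial enzymes (below), in order of level, with rFGF4-treated mice left of the vertical line. The column of rFGF4 mouse 1 is the highest for 19 of the 20 cytosolic enzymes, and Pars2 is the row in which the groups separate.

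**Figure D5:**
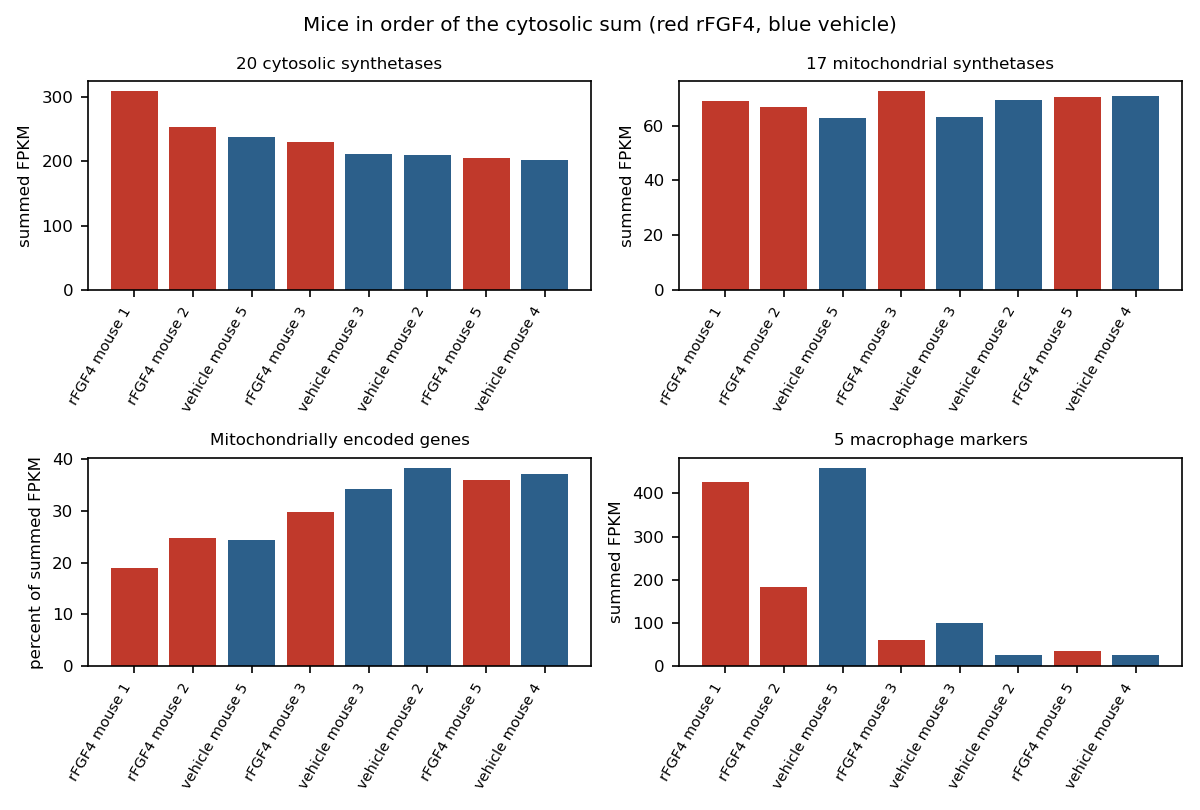
Summed FPKM of the cytosolic and mitochondrial enzymes (top), percent of FPKM from mitochondrially encoded genes and summed FPKM of 5 macrophage markers (bottom), 1 bar per mouse in order of the cytosolic sum, rFGF4 in red and vehicle in blue. The mice with the 3 highest cytosolic sums also have the 3 lowest mitochondrially encoded shares and the 3 highest macrophage sums.

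Cytosolic and mitochondrial partners were next set against each other for each amino acid, with Farsa for phenylalanine and Eprs for both glutamate and proline. The cytosolic gene was higher in all 8 mice in 13 of the 17 pairs, and the median ratio of mean FPKM was 2.75. The reverse held in all 8 mice for isoleucine alone, where Iars was 0.539 to 0.954 times Iars2. Cysteine, phenylalanine and threonine had mixed order, as Cars over Cars2 ran from 0.869 to 1.45, Farsa over Fars2 from 0.646 to 1.23 and Tars over Tars2 from 0.897 to 1.71. The other phenylalanyl subunit, Farsb, was above Fars2 in all 8 mice, at 11.3 to 16.6 FPKM against 5.68 to 7.67 FPKM. The widest gap was between Mars1 and Mars2, at 12.8 to 19.8. The ratio of Eprs to Pars2 was 12.7, 15.3, 15.7 and 3.81 in treated mice and 1.96, 2.31, 1.85 and 2.72 in vehicle mice. Of the 17 ratios 2 had groups that did not overlap. The share among single tested genes was 3.33%, and the share among ratios of genes was not computed. Of these 2 ratios, that of proline is fixed by the choice of Pars2. Sars over Sars2 was the other, at 9.29 to 11.6 with rFGF4 and 7.66 to 8.39 with vehicle, and it is named after its values were seen. Neither Sars nor Sars2 alone separated the groups.

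Genes that work beside the synthetases were taken as 7 lists, of which 68 genes were tested. Of these, 4 were higher and 1 lower with rFGF4 at an unadjusted limma p under 0.05, beside 3.56% and 1.06% of all tested genes, and none had an adjusted p under 0.918. Exact permutation tests of single genes cannot give a two-sided p below 0.0286 with 4 mice against 4. Among 16 genes of mitochondrial tRNA processing and modification, 14 had a positive log2 fold change (median 0.12, beside 67.1% positive and a median of 0.09 over all tested genes) and 2 were called higher. Elac2, the RNase Z that trims tRNA 3′ ends in nucleus and mitochondrion, was at 8.58, 8.49, 7.99 and 8.32 FPKM in treated mice and 6.57, 6.07, 6.57 and 6.79 FPKM in vehicle mice, without overlap (log2 fold change 0.32, SE 0.10, exact permutation p = 0.0286). Trit1, which adds the isopentenyl group next to the anticodon of some tRNAs, was at 5.78, 6.35, 4.18 and 4.83 FPKM against 2.73, 2.01, 2.65 and 5.32 FPKM (log2 fold change 0.63, SE 0.24, exact permutation p = 0.0857). Vehicle mouse 5 was the exception in the Trit1 values, lying within the treated range. Trmu, which thiolates the wobble base of mitochondrial tRNAs, is named after its values were seen, since its groups did not overlap, at 3.65 to 4.43 against 3.07 to 3.31 FPKM, and it did not reach an unadjusted limma p under 0.05.

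All 5 cytosolic elongation factors had a positive log2 fold change (median 0.26), again beside 67.1% of all tested genes, and 1 was called higher, beside 3.56% of them. Eef2, which moves the ribosome along the mRNA, was at 504, 492, 499.8 and 463 FPKM in treated mice and 399, 318, 421 and 396 FPKM in vehicle mice, without overlap (log2 fold change 0.36, SE 0.14, exact permutation p = 0.0286). rFGF4 mouse 1 was the highest mouse for all 5, as for 48.1% of all tested genes. Of 24 listed genes of the ATF4 amino acid response, 21 were tested, 18 of them with a positive value (67.1% over all tested genes) and a median of 0.28, and rFGF4 mouse 1 was highest for 13 (48.1% over all tested genes). Sesn2, a leucine sensor that restrains mTORC1, was the 1 gene of 21 called, also beside 3.56%, at 22.6, 19.9, 22.8 and 15.5 FPKM in treated mice against 14.3, 19.7, 11.7 and 12.3 FPKM in vehicle mice, with overlap (log2 fold change 0.47, SE 0.19, exact permutation p = 0.0571). Atf4 itself was at 72.5, 68.3, 41.0 and 36.9 FPKM against 37.2, 50.5, 42.7 and 62.8 FPKM, and Asns, asparagine synthetase and a standard ATF4 target, at 5.94, 1.87, 1.28 and 0.516 FPKM against 0.937, 1.81, 0.409 and 2.74 FPKM. Both are named after their values were seen, and in both the mice ranged as widely within the groups as between them.

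In the list of proteins that resemble synthetases or act in editing and selenocysteine charging, 1 of 7 was called lower and none higher, beside 1.06% and 3.56% of all tested genes. Prorsd1, a free-standing relative of the prolyl-tRNA editing domain, was at 4.56, 3.77, 3.63 and 3.26 FPKM in treated mice and 5.36, 4.84, 4.41 and 5.20 FPKM in vehicle mice (log2 fold change -0.31, SE 0.13, exact permutation p = 0.0571). Only rFGF4 mouse 1 reached into the vehicle range. Aarsd1, an alanyl-tRNA editing protein named after its values were seen, was at 6.11 to 9.49 FPKM with rFGF4 and 9.52 to 10.2 FPKM with vehicle (log2 fold change -0.30) and did not reach an unadjusted limma p under 0.05. The 4 genes of the mitochondrial glutamine route and initiator formylation (Qrsl1, Gatb, Gatc and Mtfmt) had a median of 0.02 and the 12 mitochondrial translation factors a median of 0.04, with no gene called in either. The calls depended on scaling: with a common median ratio Elac2 (0.20), Eef2 (0.23) and Sesn2 (0.34) no longer had an unadjusted limma p under 0.05, while Trit1 (0.53) and Prorsd1 (-0.42) did, and after sum rescaling Prorsd1 (-0.12) did not.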

How the data were processed

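Poly(A) RNA of kidney was sequenced from 8 diabetic mice, 4 treated with rFGF4 and 4 with vehicle. The authors assembled the mapped reads of each library with StringTie, merged the transcripts with gffcompare and deposited FPKM per gene. The submitters' processing notes list HISAT2 2.0, Bowtie 0.12.2, StringTie 1.3.0 and the build mm8 without saying what each was used for. The deposited table also holds the authors' edgeR fold change (a ratio), its log2 value and a p-value and q-value per gene, none of which was used. It holds no counts, so counting error is unknown and edgeR could not be run. A value of 0.0001 stands at 57.5% of entries and was taken as a floor in place of 0.

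Members were found by gene symbol, and the members, the pathway lists and the marker lists were chosen with earlier results of these data known. Of the members, 1 enters counts and sums but is not reported here by name. Genes with at least 0.5 FPKM in 4 or more libraries (15150) were compared as log2(FPKM + 1) in R 4.3.3 by limma 3.58.1, letting the prior variance follow the mean level, without covariates and with Benjamini-Hochberg adjustment over all of them. The study's limits (unadjusted p under 0.05, ratio of 1.5 or more, or of 0.67 or less) were applied to this fit. The p printed for a named gene is that of an exact permutation test (two-sided) on the log2 values unless it is called a limma p. Intervals are 95% limma intervals. Each library is 1 mouse, and the tests set the difference between groups against the spread between mice. For limma this spread is moderated towards that of genes at a similar level. Values by mouse are given for Pars2, for members with a p under 0.05 or with separate groups, for the 3 highest and the 3 lowest of each class, for Gars, Kars and Eprs, and for listed pathway genes with a p under 0.05; Ttc4 was given as the nearest neighbour of Pars2 and 3 members for a mouse that stood apart, and other genes given by mouse are described as named after their values were seen. GENCODE M21 (GRCm38) gave positions and overlaps and held 55141 of the 55401 identifiers, and promoter sequences came from RefSeq on GRCm38.p6. The fit was tested on simulated data. Alternatives were another pseudocount, no filter or a stricter filter of 1 FPKM, 2 rescalings, no trend, a block for shared mouse numbers and each mouse left out. The block used mice 2, 3 and 5 of each group only. Leaving out rFGF4 mouse 1 and vehicle mouse 5 together was added after seeing the data. Python 3.11.15 with matplotlib 3.10.9 drew the figures.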

Additional observations from a re-analysis of the deposited data

Results flagged for a closer look

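Of 98 groups of 4 mice examined (members, the neighbours of Pars2 and the pathway genes with a p under 0.05 or separate groups, as log2(FPKM + 1), and the cytosolic and mitochondrial sums), 3 held a mouse whose gap to the nearest other mouse, divided by the range of the group, was above Dixon's 95% limit for 4 samples, where about 5 would be flagged by chance. In the vehicle group, Mars1 was high in mouse 5 (0.896) and Farsa was high in mouse 5 (0.834), the library with the highest macrophage and B and plasma cell marker sums, and Nars was low in mouse 3 (0.840). In FPKM, Mars1 was at 10.3, 10.1, 10.3 and 12.6 in vehicle mice 2, 3, 4 and 5, Farsa at 4.84, 5.07, 4.95 and 6.34, and Nars at 18.2, 16.2, 18.4 and 18.0.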

How the results depend on the processing

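The Pars2 log2 fold change, whose direction the choice of the gene fixes, was -1.82 with 0.1 added in place of 1, -0.82 after sum rescaling, and -1.07 to -0.84 with a mouse left out. Counts of members with an unadjusted p under 0.05 include Pars2 in every setting, from which nothing is read, since it was chosen on this contrast. They were 1 in the fit reported, 2 without a filter (1 besides Pars2, 4.08% of all genes tested), 5 after sum rescaling (4 besides, 7.61%), 2 after median-ratio scaling (1 besides, 4.67%), 3 without rFGF4 mouse 1 and vehicle mouse 5 (2 besides, 5.68%), and 1 to 6 with a mouse left out (0 to 5 besides, 2.84% to 9.44%). No member besides Pars2 passed the study's threshold in any of these. The cytosolic and mitochondrial medians were 0.38 and 0.24 after sum rescaling, and 0.082 to 0.27 and 0.016 to 0.087 with a mouse left out. The mitochondrial median was -0.030 after median-ratio scaling. Of 68 pathway genes, those with p under 0.05 numbered 3 after median-ratio scaling (4.67% of all genes tested), 0 in the replicate block (2.61%), and 1 (without vehicle mouse 2, 3.29%) to 9 (without rFGF4 mouse 5, 9.44%) with a mouse left out. The mouse numbers 2, 3 and 5 occur in both groups, and the labels do not say whether they pair the mice. The deviations of same-numbered mice correlated at -0.23, -0.16 and -0.39, values that cannot settle whether the mice were paired. The block used mice 2, 3 and 5 of each group only and so left out rFGF4 mouse 1 and vehicle mouse 4. It gave Pars2 at -0.86 and no member besides it with an unadjusted limma p under 0.05 (2.61% of all genes tested). Of the cytosolic enzymes 12 of 20 had a positive value (median 0.05), beside 46.7% of all genes. The block and the missing mice cannot be told apart here. Mars2 is lost under the stricter filter.

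Signs changed as follows, also for Vars (0.33 in the fit reported), Gars (0.17) and Wars (0.16), which were not near 0. After sum rescaling, which moves the median of all genes to 0.26, Aars2 was 0.11, Tars2 0.12, Sars2 0.10 and Fars2 0.19. After median-ratio scaling, Cars2 was -0.030, Yars2 -0.095, Aars -0.063, Rars -0.043, Hars2 -0.073, Yars -0.047, Mars2 -0.022, Lars -0.016 and Kars -0.045. In the replicate block, Vars was -0.12, Gars -0.026, Cars2 -0.041, Yars2 -0.025, Wars -0.035, Aars -0.049, Rars -0.055, Yars -0.10, Fars2 0.11, Lars -0.12 and Kars -0.070. That block lacked rFGF4 mouse 1 and vehicle mouse 4. Without rFGF4 mouse 1 and vehicle mouse 5, Hars2 was -0.095, Yars -0.0046 and Mars2 -0.023. With a mouse left out, Vars ranged from -0.0067 to 0.58, Tars2 from -0.16 to 0.019, Cars2 from -0.0049 to 0.16, Yars2 from -0.042 to 0.068, Rars from -0.0011 to 0.15, Hars2 from -0.036 to 0.13, Yars from -0.031 to 0.13, Fars2 from -0.082 to 0.064, Mars2 from -0.0014 to 0.076, Lars from -0.064 to 0.20 and Kars from -0.022 to 0.16. The cause of these changes was not tested. Without counts the precision of low values such as those of Pars2 and Mars2 cannot be set, and 4 mice a group limit what can be detected.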
